A study of Mus musculus with 6 samples.

Results

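PER_6 is the cluster of striatal cells that the authors named pericytes after clustering all cells of the series together. Its members were taken from the deposited cell annotation and their counts were matched by cell identifier, which gave 644 of 14373 annotated cells. Of these, 628 came from postnatal day 3 (P3) and 16 from 3 months of age (3m). The cells were prepared from the striatum of wild-type male C57BL/6 mice by magnetic sorting for ACSA2, an antigen on the surface of astrocytes, and were run as 3 P3 and 3 3m libraries of 10x Chromium 3′ single-cell RNA-seq. Counts are of UMIs, the random tags by which copies of 1 captured transcript are counted once. The P3 libraries gave 220, 170 and 238 PER_6 cells (replicates 1, 2 and 3) and the 3m libraries 6, 4 and 6. The labels do not say how many animals made a library.

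Mural cells wrap the endothelial tube of blood vessels. Smooth muscle cells surround arteries and arterioles and contract through α-smooth muscle actin and smooth muscle myosin. Pericytes sit on capillaries and share the basement membrane with the endothelium. They carry an ATP-sensitive potassium channel made of Kir6.1 (*Kcnj8*) and SUR2 (*Abcc9*). It is called the pericyte channel here, although its transcripts were also found in 159 of the 201 cells with contractile genes described below. Both kinds of mural cell depend on platelet-derived growth factor from the endothelium, which they sense through PDGFRβ (*Pdgfrb*). Fibroblasts around larger vessels and in the meninges make fibrillar collagens and small proteoglycans such as decorin (*Dcn*) and lumican (*Lum*).

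The P3 cells of PER_6 held 1821789, 1139408 and 1373050 UMIs in replicates 1, 2 and 3, with medians of 6859, 5220 and 4404 UMIs per cell. The 3m cells held only 22488, 9656 and 16422 UMIs. All statements about cell types at P3 therefore rest on 628 cells, and statements about 3m on 16. PER_6 was compared with the 10 other clusters, or merged clusters of the same name, that had at least 50 P3 cells. These were the P3 astrocytes (AST_P3, 7675 cells), glial progenitors (GPC, 1086), 3 endothelial clusters (END_7, 605 cells, END_12 and END_13), microglia (MIC_16), a separate astroglial cluster (AST_P3_19), oligodendrocyte progenitors (OPC_18), neurons (NEU_22) and a cluster that the authors left unidentified (LOW_20). END_12 had only 1 and 2 cells in P3 replicates 1 and 2, so its values there are those of single cells. PER_6 was drawn from the same counts, so its levels against the other clusters are a description without a test. Levels are given as CPM, the UMIs of a gene summed over the cells of 1 cluster in 1 library and scaled to a total of 1000000. A 3′ UMI count is not scaled by gene length, and levels are compared between clusters, not between genes.

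The 5 genes given as markers of the cluster, which belong to contractile cells (*Acta2*, *Tagln*, *Des*), mural cells (*Pdgfrb*) and matrix-producing cells (*Col3a1*), were all detected in PER_6. With every cell thinned to 2000 UMIs (596 of 628 cells were deep enough), a UMI of *Pdgfrb* was found in 63.7% ± 9.4 of the P3 cells (SD, n = 3 libraries), of *Tagln* in 35.2% ± 10.4, of *Acta2* in 34.7% ± 13.8, of *Col3a1* in 31.9% ± 5.4 and of *Des* in 28.4% ± 0.96. In astrocytes, which should lack them and were thinned alike, the shares were 7.63%, 6.76%, 0.761%, 0.0138% and 0.0948%. In END_7, thinned alike, they were 25.8%, 2.96%, 2.71%, 6.82% and 6.38%. All 5 were thus far above the astrocyte background, and at this depth *Pdgfrb* was the only one found in most of the cells. Without thinning, the shares were 88.7% for *Pdgfrb*, 60.01% for *Col3a1*, 51.9% for *Des*, 37.8% for *Tagln* and 35.7% for *Acta2*. In the same order they were 22.9%, 0.125%, 0.282%, 19.3% and 3.10% in astrocytes. In END_7, whose cells were deeper, they were 82.8%, 50.6%, 43.4%, 15.7% and 8.36%. The astrocytes had medians of 5024 to 9144 UMIs per cell before thinning.

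Contractile genes gave the 4 largest folds over the other P3 cell types. A gene was counted when its mean over the P3 libraries was at least 50 CPM, at least 4 times that of each other type after adding 1 CPM to both, and when its lowest PER_6 library was above the highest library of each other type. Of 3226 genes with at least 50 CPM, 78 (2.42%) met this. The top of the list was *Acta2* (55.1-fold over the next type), *Actg2* (47.6-fold), *Tagln* (36.6-fold) and *Myh11* (35.6-fold), which encode the α and γ smooth muscle actins, transgelin and the smooth muscle myosin heavy chain.

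*Acta2* stood at 1494, 4039 and 6408 CPM in P3 replicates 1, 2 and 3 of PER_6. In END_7 it was at 8.82, 25.2 and 58.2 CPM and in astrocytes at 1.77, 4.75 and 20.1 CPM. The groups were far apart in every library, but within PER_6 replicate 1 had much less than the others. *Tagln*, an actin-binding protein of contractile cells, followed the same order with 835, 2873 and 3152 CPM. *Myh11* was at 29.6, 91.3 and 79.4 CPM in PER_6 and at most at 1.42 CPM in any library of another type. Replicate 1 was again the lowest of the PER_6 libraries. *Des*, the intermediate filament of muscle cells, differed less between the libraries, with 182, 212 and 248 CPM.

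**Figure D1:**
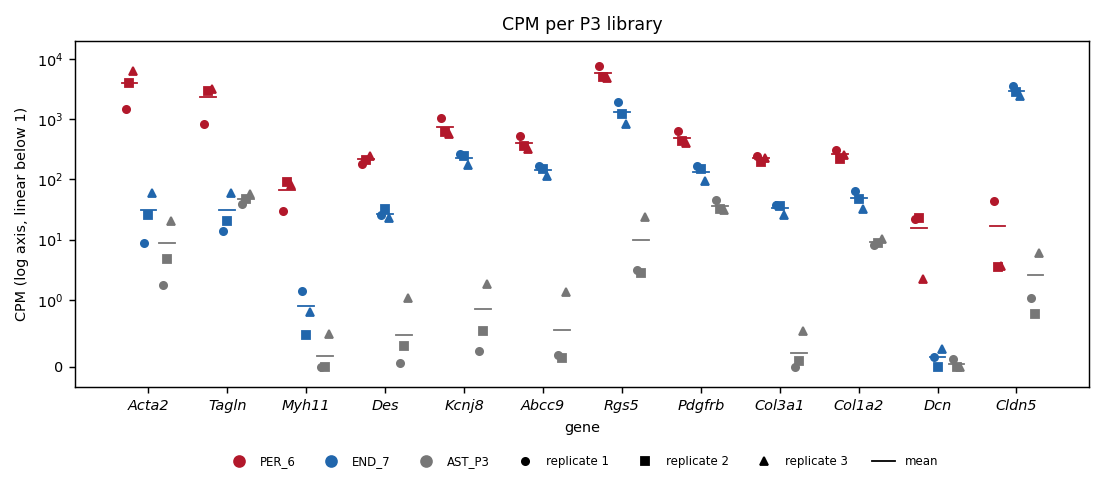
CPM (vertical axis, log scale that is linear below 1) of 12 genes in each P3 library of PER_6, END_7 and astrocytes (AST_P3), with the symbol giving the replicate and the line the mean of 3 libraries. *Acta2*, *Tagln* and *Myh11* of PER_6 lie more than 10 times above both other types, the pericyte genes *Kcnj8*, *Abcc9* and *Rgs5* lie 2.78- to 4.39-fold above END_7, and *Cldn5* is high in END_7.

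The genes lie on different chromosomes of the mouse genome (GRCm38, GENCODE M21). *Acta2* is at chr19:34241090-34255590 on the minus strand, *Tagln* at chr9:45929619-45936058 (minus) and *Myh11* at chr16:14194535-14291372 (minus), all protein-coding. Many contractile genes are known to be driven by serum response factor through the CArG box, a short palindromic element. In RefSeq promoter windows (GRCm38.p6, 250 bases before to 50 after each start) a full CArG box was present in 488 of 27025 genes (1.81%). Allowing 1 of the 6 inner bases to deviate, it was present in 3050 (11.3%). Of the smooth muscle list, 11 of 14 genes were in the table (not *Tagln*, *Myh11* or *Actg2*), and 1 of the 11, *Myl9*, had a full match and 2, *Acta2* and *Myl9*, a match with 1 deviation allowed. Among the pericyte genes 0 of 9 had a full match and 1 of 9 (*Gper1*) a match with 1 deviation, among the shared mural genes these were 0 and 1 of 8, among the fibroblast genes 0 and 3 of 10, and of the 78 counted genes 53 were in the table, 3 of them with a full match and 14 with 1 deviation allowed. A match says only that the letters are present.

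The matched stretches of the top gene, *Acta2*, and the window of *Myl9*, the gene with the full match, are shown because these genes carry the contractile signature. Capitals mark the matches. The *Acta2* stretches, with 10 bases on each side, lie at chr19:34255438-34255467 and chr19:34255388-34255417 on the minus strand, 84 to 75 and 34 to 25 bases upstream of the RefSeq start and inside exon 1 of the longer GENCODE transcript. The *Myl9* window is chr2:156775214-156775419 on the plus strand and ends before the first base of the GENCODE gene. Its full match is the first of the pair.
Acta2 distal: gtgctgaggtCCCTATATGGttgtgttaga
Acta2 proximal: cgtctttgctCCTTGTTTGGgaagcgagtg
Myl9: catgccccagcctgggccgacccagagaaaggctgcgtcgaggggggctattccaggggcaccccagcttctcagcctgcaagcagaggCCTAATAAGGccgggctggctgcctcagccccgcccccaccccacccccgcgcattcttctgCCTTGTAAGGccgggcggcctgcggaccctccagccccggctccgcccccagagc

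Of the 14 contractile genes, 10 reached 50 CPM and 7 were counted: *Acta2*, *Tagln*, *Myh11*, *Myl9*, *Tpm2*, *Actg2* and *Des*. The median log2(fold) of the 10 over the next type was 3.43, against -0.59 over all 3226 genes. *Myl9*, the regulatory light chain of myosin, was at 2724, 3068 and 3934 CPM. *Tpm2* (β-tropomyosin) was at 491, 505 and 379 CPM, 15.1-fold over END_7. The 4 genes of the list under 50 CPM were *Cnn1*, *Pln*, *Lmod1* and *Smtn*. *Cnn1* (calponin) was at 2.87 CPM ± 2.61 (SD, n = 3), *Pln* (phospholamban, the brake of the sarcoplasmic calcium pump) at 0.901 ± 0.186 and *Lmod1* (leiomodin) at 30.8 ± 15.2. *Smtn* (smoothelin) was higher in END_7 (66.2 CPM) than in PER_6 (20.1). *Myocd*, the coactivator of serum response factor in smooth muscle, was at 1.10, 1.76 and 3.64 CPM.

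Almost every cell had some of the pericyte genes, though not each of them. At 2000 UMIs, 99.3% ± 0.43 of the P3 cells had UMIs of 3 or more of the 12 pericyte genes, compared with 85.7% ± 0.87 for the 14 contractile genes, and with 0.0823% and 0.428% of astrocytes. Within the contractile list, *Myl9* and *Cald1* were found in 96.6% and 98.0% of the cells, well above *Acta2*. *Rgs5*, a regulator of G-protein signalling and the usual pericyte marker, was at 7741, 4969 and 4833 CPM and was found in 98.5% ± 0.53 of the cells. *Vtn* (vitronectin) was at 4875, 4963 and 3716 CPM. *Kcnj8* was at 1063, 600.3 and 558 CPM and *Abcc9* at 517, 363 and 321 CPM. At 2000 UMIs *Kcnj8* was found in 67.7% ± 12.3 of the cells and *Abcc9* in 49.6% ± 5.0. These shares were below those of *Vtn* (99.2%), *Higd1b* (94.7%) and *Ndufa4l2* (93.4%). The library of replicate 1, the lowest for *Acta2*, was the highest for *Kcnj8*, *Abcc9* and *Rgs5*. *Kcnj8* (chr6:142564837-142571614, minus) and *Abcc9* (chr6:142587862-142702315, minus) are neighbours, 16.2 kb apart, and encode the pore and the regulatory subunit of the same channel.

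Although every one of the 12 pericyte genes was higher in PER_6 than in the next type, only 4 were counted, *Ndufa4l2*, *P2ry14*, *Gper1* and *Slc19a1*. Their median log2(fold) was 1.83. For 5 of the other genes the next type was END_7, an endothelial cluster, and for *Vtn*, *Higd1b* and *Rgs5* it was END_12 with its libraries of 1 and 2 cells. END_7 carried pericyte genes at a median of 24.01% of the PER_6 level, from 18.5% for *P2ry14* to 35.8% for *Abcc9*. *Kcnj8* in END_7 was at 266, 246 and 172 CPM and *Abcc9* at 165, 150.2 and 115 CPM, compared with 0.862 and 0.55 CPM on average in astrocytes. For the 10 contractile genes that reached 50 CPM the median was 9.48%, from 0.327% for *Actg2* to 38.9% for *Tpm1*, and 45.0% ± 8.1 of END_7 cells had 3 or more contractile genes at 2000 UMIs. *Acta2*, the gene of the largest fold, was 125-fold lower in END_7 than in PER_6. The UMIs of *Acta2* per UMI of *Kcnj8* were 1.41, 6.73 and 11.5 in PER_6 and 0.0331, 0.103 and 0.338 in END_7. END_7 cells had medians of 22396 to 32603 UMIs and 80.2% ± 6.8 of them had 3 or more pericyte genes at 2000 UMIs, beside 76.4% ± 4.9 with 3 or more of 7 endothelial genes. Whether the pericyte transcripts of END_7 came from the endothelial cells themselves was not tested. With END_7 left out of the comparison, which was tried after seeing these values, 134 genes were counted instead of 78.

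The 7 endothelial genes were unevenly carried in PER_6. Of the defining endothelial genes, *Cldn5* (the claudin of the blood-brain barrier) was at 43.4, 3.51 and 3.64 CPM in PER_6 against 3489, 2806 and 2388 in END_7, and *Pecam1* was at 3.29, 0 and 0 CPM. A single cell of replicate 1 held 59 of the 79 *Cldn5* UMIs of that library. *Esam* and *Emcn* were nearer to the level of END_7 (668 and 151 CPM), at 223 ± 14.5 and 100.2 ± 28.8 CPM, and made up most of the endothelial sum of 307 to 414 CPM, compared with 4608 CPM in END_7. The 5 microglial genes summed to at most 2.63 CPM, the 4 haemoglobin genes to at most 10.9 CPM, the 5 neuronal genes to 3.51 to 30.6 CPM and the 5 genes of the oligodendrocyte lineage to 26.2 to 44.8 CPM.

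**Figure D2:**
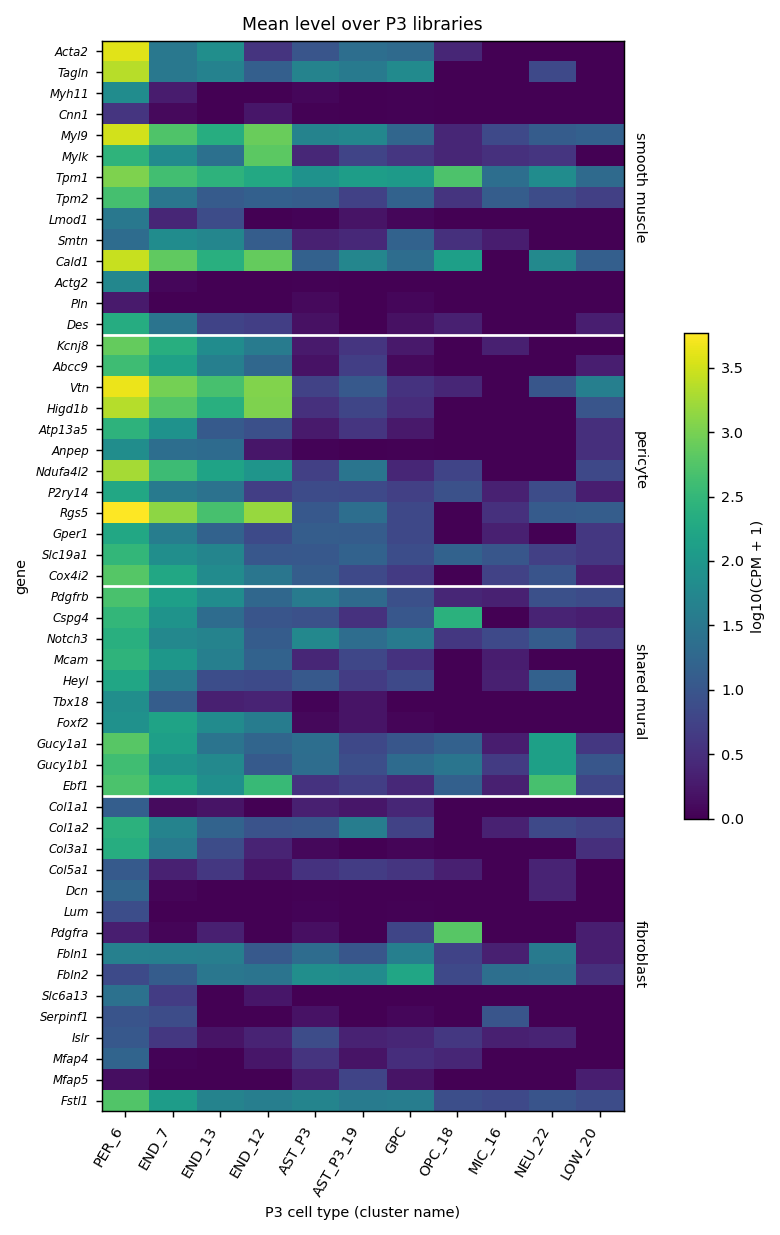
Mean CPM over the P3 libraries, as log10(CPM + 1) in colour, for the genes of the smooth muscle, pericyte, shared mural and fibroblast lists (rows) in PER_6 and the 10 other P3 cell types (columns). PER_6 is brightest in the upper 3 blocks except for *Mylk* (brightest in END_12) and *Smtn* and *Foxf2* (brightest in END_7). In the fibroblast block only *Col1a2*, *Col3a1* and *Fstl1* pass 50 CPM in PER_6.

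Genes shared by both kinds of mural cell were present in all libraries. *Pdgfrb* was at 623, 426 and 395 CPM in PER_6 and at 165, 146 and 92.2 CPM in END_7, 3.56-fold apart. Of the 10 shared genes, *Notch3* (the Notch receptor of mural cells), its target *Heyl*, the transcription factor *Tbx18* and *Gucy1a1* (a subunit of the nitric oxide receptor) were counted. *Notch3* was at 231, 234 and 245 CPM, with little spread between libraries. *Cspg4* (NG2) reached 306 ± 35.3 CPM and was also carried by oligodendrocyte progenitors, at 256 CPM. *Foxf2* was the exception, with 80.0 ± 17.8 CPM in PER_6 and 153 CPM in END_7.

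Among 14 transcription factors of mural cells, 9 reached 50 CPM and 4 were counted, *Foxd1* (291 ± 83.1 CPM, 5.4-fold over END_7), *Tbx2* (5.8-fold), *Zic1* (5.0-fold) and *Twist1* (4.6-fold). *Tbx2* was at 175, 147 and 199.6 CPM, and *Zic1* at 393, 234 and 259 CPM. *Meox2* had 0 UMIs in each PER_6 library. *Hey1*, a Notch target, was higher in astrocytes (62.3 CPM) than in PER_6 (14.6 CPM).

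Few genes of vessel signalling were counted. The median log2(fold) over the next type was -0.36 for the 5 ligands and -1.04 for the 6 receptors that reached 50 CPM. Among ligands made by endothelium, *Pdgfb* was at 11.5 CPM (163 in END_7), *Dll4* at 3.91 (81.8) and *Edn1* at 0.718 (154). Of 13 ligands 0 were counted, and the highest was *Igf2* (insulin-like growth factor 2) at 1307, 467 and 697 CPM, 3.996-fold over END_7 and so just under the threshold of 4. Of 13 receptors, *Ednra*, which senses endothelin, was counted with 277, 200.1 and 206 CPM in PER_6 and 54.3 CPM in END_7. The other endothelin receptor, *Ednrb*, was at 973 CPM in astrocytes and 69.6 CPM in PER_6. *Kdr* and *Flt1*, the receptors of VEGF, were at 5.02 and 56.6 CPM against 520 and 649 in END_7. Of 12 genes of vessel tone, *Kcnmb1* (the β-subunit of the calcium-activated potassium channel) and *Pde3a* were counted, at 55.4 ± 11.2 and 74.6 ± 12.0 CPM. *Agtr1a* and *Ryr3* were at means of 0.366 and 0.243 CPM.

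The fibroblast list was carried in part. *Col3a1* (chr1:45311538-45349706, plus) was at 247, 197 and 229 CPM in PER_6 and at 38.1, 36.7 and 25.3 CPM in END_7, and *Col1a2* at 304, 217 and 256 CPM. Together with *Fstl1* (540, 481 and 621 CPM), they were the 3 of 15 genes that reached 50 CPM, and all 3 were counted. The genes that define fibroblasts were nearly absent. *Dcn* was at 21.96, 22.8 and 2.18 CPM, *Lum* at 7.68, 12.3 and 0, *Pdgfra* at 0.549, 2.63 and 0, and *Col1a1*, the partner chain of *Col1a2* in type I collagen, at 9.88, 24.6 and 2.18.

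These low levels came from very few cells. Of 628 P3 cells, 3 had UMIs in 3 or more of *Dcn*, *Lum*, *Pdgfra*, *Col1a1*, *Slc6a13* and *Serpinf1*, 1 in replicate 1 and 2 in replicate 2. They held 63 of 69 *Dcn* UMIs, 28 of 28 *Lum* UMIs, 4 of 4 *Pdgfra* UMIs, 44 of 49 *Col1a1* UMIs and 30 of 33 *Serpinf1* UMIs. *Slc6a13* was the exception, with 43 of 102 UMIs in them and a UMI in 47 of the 628 cells. None of the 3 had a UMI of *Acta2*, *Kcnj8*, *Abcc9* or *Rgs5*. In contrast, *Col3a1* and *Col1a2* were spread over 379 and 414 of the 628 cells. At 2000 UMIs, 37.3% of the 193 cells with *Col3a1* had *Acta2*, against 33.3% of the others, and 63.7% had *Kcnj8*, against 70.5%.

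Matrix of the basement membrane was high but not particular to PER_6. Of 15 genes, 12 reached 50 CPM and 0 were counted, with a median log2(fold) of 0.58. *Col4a1* was at 2754, 2162 and 3022 CPM, and at a mean of 1051 CPM in END_7. *Fn1* and *Hspg2* were higher in END_7 (660.1 and 139 CPM) than in PER_6 (158 and 46.6).

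Other counted genes with the largest folds were *Hspb2* (a small heat-shock protein of muscle, 15.6-fold), *Ccdc68* (12.8-fold), *Aspn* (asporin, 11.7-fold), *Lgals1* (galectin-1, 8.9-fold over microglia), *Map3k7cl* (8.7-fold), *Cryab* (αB-crystallin, 7.8-fold), *Slc38a11* (7.6-fold), *Crip1* (7.3-fold) and *Mustn1* (7.3-fold). *Filip1l*, *Pcolce* (the enhancer of procollagen processing), *Ctsk* (cathepsin K) and *Ppp1r14a* (an inhibitor of myosin phosphatase) were 5.9- to 6.3-fold over END_7. *Crip1* shared the pattern of *Acta2*, with 784 CPM in replicate 1 and 2225 and 2031 CPM in the others, whereas *Ppp1r14a* ran the other way with 462, 316 and 231 CPM. END_7 was the next type for 58 of the 78 genes.

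The cells also carried the transcript of the antigen used to prepare them. *Atp1b2*, which encodes ACSA2, was at 255, 248 and 263 CPM in PER_6, at 392, 327 and 357 CPM in astrocytes and at 60.2, 59.99 and 43.1 CPM in END_7. At 2000 UMIs it was found in 41.5% ± 2.8 of PER_6 cells, 48.7% ± 5.2 of astrocytes and 11.5% ± 0.88 of END_7 cells.

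To ask whether contractile and pericyte genes sat in the same cells, the P3 cells were first sorted by their UMIs. Of 628 cells, 567 had a UMI of *Kcnj8* or *Abcc9*, and 201 had UMIs in at least 2 of *Acta2*, *Tagln* and *Myh11*. Both conditions held in 159 cells, the channel genes without the contractile ones in 408, and the contractile genes without the channel in 42. The 3 fibroblast-gene cells had neither, and 16 cells had none of the 3 signatures. At equal depth (2000 UMIs) the genes of the pericyte channel and *Acta2* were found together in a smaller part of the cells. *Kcnj8* was found in 37.9% of the 206 cells with *Acta2* and in 84.4% of the others, and *Abcc9* in 23.3% and 63.3%. *Tagln* was found in 86.9% of cells with *Acta2* and in 7.69% of the others. *Rgs5* was found in 206 of the 206 and in 97.7% of the others.

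Clustering of the P3 cells alone gave 5 sub-clusters, each with cells of all 3 libraries. Their leading genes were the ones that formed them and are given as a description. Sub-cluster 0 was the largest, with 319 cells (52.3%, 52.4% and 48.3% of replicates 1, 2 and 3). Its leading genes over the other cells were *Slc22a8*, an organic anion transporter, the metalloprotease *Mmp9*, *Fgf12*, *Trf*, *Slc6a20a* and *Abcc9*. Only 1 pericyte gene was among the 10, so that it received no name by the rule of at least 3. It had the pericyte channel at high level, with *Kcnj8* at 1256 ± 207 and *Abcc9* at 753 ± 57.4 CPM, and little *Acta2* (127 ± 120 CPM).

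Sub-cluster 1 was smooth muscle-like, with *Tagln*, *Myh11*, *Acta2* and *Actg2* among its 10 leading genes. It held 133 cells, 14.5% of replicate 1, 25.9% of replicate 2 and 23.9% of replicate 3. *Acta2* was at 5065, 9336 and 14232 CPM there, so that replicate 1 was the lowest both in the share of such cells and in their level. *Kcnj8* was at 491, 164 and 248 CPM, 4.16-fold lower on average than in sub-cluster 0.

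Smooth muscle and pericyte genes ran in opposite directions between sub-clusters 0 and 1, which were formed from these counts. With 1 CPM added to both, 10 of the 14 contractile genes were at least 2 times higher in sub-cluster 1. Of the 12 pericyte genes, 6 were at least 2 times higher in sub-cluster 0. *Cnn1* and *Pln*, which are among the 10, were at means of only 5.51 and 1.83 CPM in sub-cluster 1 and at 0 in sub-cluster 0. *Rgs5* was at 7826 ± 1637 CPM in sub-cluster 0 and at 5538 ± 1100 in sub-cluster 1 (SD, n = 3), *Notch3* at 277 ± 32.0 and 235 ± 25.3, and *Pdgfrb* at 707 ± 110 and 284 ± 94.5. *Abcc9* was at 105 ± 35.4 CPM in sub-cluster 1, 7.09-fold lower than in sub-cluster 0. The fibrillar collagens did not separate them, with *Col3a1* at 222 ± 11.9 and 259 ± 48.5 CPM and *Col1a2* at 257 ± 72.8 and 323 ± 52.7. *Cldn5* was among the leading genes of sub-cluster 1 as well, and 60 of its 79 UMIs in replicate 1 were there. *Ccn2* (a matricellular growth factor), *Gsn* (gelsolin) and *Cav1* (caveolin-1) were the other leading genes with a known role.

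**Figure D3:**
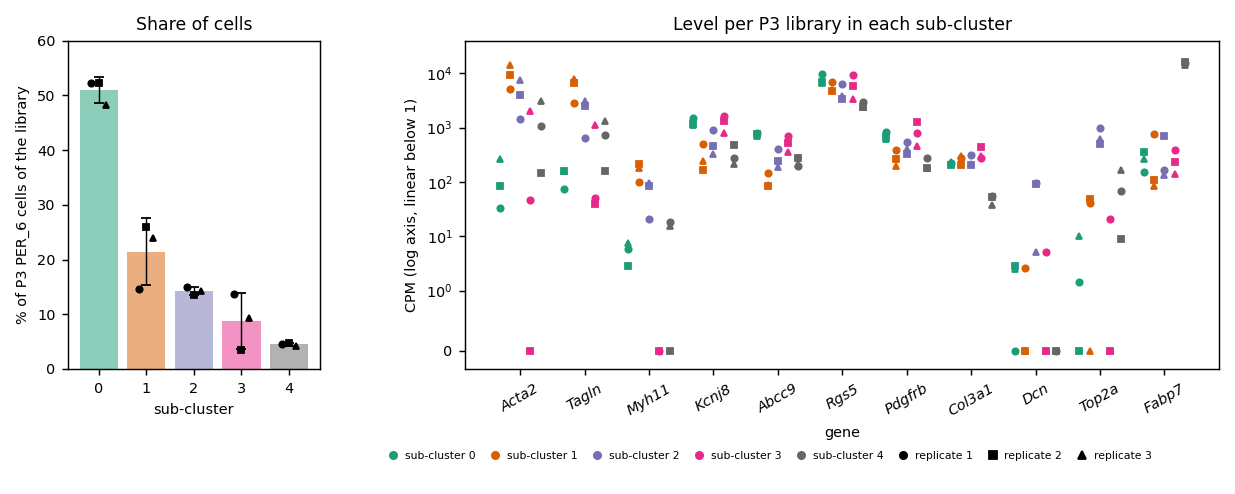
Left, percent of the P3 cells of PER_6 in each of 5 sub-clusters (bars, mean of 3 libraries ± SD, points are libraries). Right, CPM of 11 genes in each sub-cluster and library on a log axis, with *Acta2* between 5065 and 14232 CPM in sub-cluster 1 and between 33.2 and 263 CPM in sub-cluster 0.

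The 3 smaller sub-clusters were each led by genes of another programme. Sub-cluster 2 (90 cells, 15%, 13.5% and 14.3% of the libraries) was led by genes of DNA replication and mitosis, *Hist1h1b*, *Ube2c*, *Nusap1*, *Top2a* and *Mki67*, and held 96.4% of the *Hist1h1b* UMIs. It had *Acta2* at 1475, 4048 and 7636 CPM, and *Kcnj8* at a mean of 558 CPM, both between sub-clusters 0 and 1. Sub-cluster 3 (58 cells, 13.6%, 3.53% and 9.24%) was led by the chemokines *Ccl12* and *Ccl2*, the heat-shock genes *Hspa1a* and *Hspa1b*, *Hmox1* (haem oxygenase 1) and the immediate early genes *Fos* and *Egr1*. The 9 immediate early genes summed to 9409, 5278 and 12979 CPM there and to 825, 1171 and 1192 CPM in sub-cluster 0. Whether the preparation of the cells had a part in this was not tested. The 12 pericyte genes summed to 25090, 24011 and 14694 CPM in sub-cluster 3 and to 25479, 25293 and 21952 CPM in sub-cluster 0. The sums were thus near each other in replicates 1 and 2 but not in replicate 3, and replicate 2 rests on 6 cells. *Kcnj8* was at a mean of 1246 CPM in sub-cluster 3.

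Sub-cluster 4 (28 cells, 4.55%, 4.71% and 4.20%) was led by astroglial genes, *Ptprz1*, *Slc1a2*, *Slc1a3* and *Fabp7*. The 7 astroglial genes summed to 18943 ± 779 CPM in it and to 570 to 595 CPM on average in each other sub-cluster, against 28322 CPM in astrocytes. It held 84.9% of the *Fabp7* UMIs of PER_6. Its cells had a median of 13107 UMIs, the highest of the sub-clusters (4295 in sub-cluster 0), and carried mural genes too, with *Rgs5* at a mean of 2584 CPM. Over all P3 cells of PER_6 the astroglial sum was 2143 to 2560 CPM. No doublets were removed, and the part of doublets in these cells was not tested. Without sub-cluster 4, an alternative chosen after seeing the data, 90 genes were counted instead of 78, all 78 among them.

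A part of the PER_6 cells carried genes of cell division. At 2000 UMIs, 64 of 596 cells had UMIs of at least 2 of *Mki67*, *Top2a* and *Cdk1*, which were 12.0%, 9.70% and 10.2% of the libraries (10.7% ± 1.2, SD, n = 3). The share was 0.495% ± 0.16 in astrocytes, 7.09% ± 1.3 in END_7 and 50.7% ± 4.2 in glial progenitors. It was 11.3% ± 5.2 in MIC_16, 9.97% ± 2.0 in AST_P3_19 and 7.85% ± 7.9 in END_13, so it was not particular to PER_6. In the remaining types it was at most 3.55% on average. Of the 64 cells, 30 (46.9%) had a UMI of *Acta2* and 43 (67.2%) a UMI of *Kcnj8*, compared with 33.1% and 68.4% of the other 532 cells. Cycling genes were thus found in cells with contractile genes and in cells with pericyte genes.

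PER_6 made up a much larger part of the P3 libraries than of the 3m libraries. It held 8.75%, 4.68% and 4.72% of the annotated cells at P3 (6.05% ± 2.3, SD, n = 3) and 0.749%, 0.286% and 0.609% at 3m (0.548% ± 0.24). The 3m share was 1.24% ± 0.62 with oligodendrocytes left out of the denominator and 1.63% ± 1.8 over cells with at least 1000 genes and at most 5% mitochondrial UMIs. Every P3 library was above every 3m library, and the difference of 5.50 percentage points had p = 0.1 in a two-sided exact permutation test, the smallest p that 3 against 3 libraries allow. The cells passed an astrocyte antigen selection at both ages, so the shares are those of the prepared cells and not of the tissue. They count PER_6 only and not all mural cells. LOW_21, a cluster described below that carried the pericyte channel at 3m, held 25, 22 and 21 cells in 3m replicates 1, 2 and 3.

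The 16 cells of PER_6 at 3m fell into separate kinds. In 6 cells (4, 1 and 1 in replicates 1, 2 and 3) at least 2 of *Acta2*, *Tagln* and *Myh11* were detected, and in the other 10 (2, 3 and 5) at least 3 of the 6 fibroblast genes named above. None had both. *Acta2* ranged from 9 to 139 UMIs in the 6 contractile cells and was at 0 in the 10 others. *Dcn* ranged from 7 to 24 UMIs in the 10 cells and was at 0 in the 6. *Rgs5* (4 to 22 UMIs) was found in exactly the 6 contractile cells, and the glutamate transporter *Slc1a3* (2 to 5 UMIs) in exactly the 10 fibroblast-gene cells. *Vtn* was found in all 16. *Kcnj8* and *Abcc9* had 0 UMIs in all 16, which allows up to 3 UMIs of 48566 and covers counting error only.

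At P3 the fibroblast genes marked 3 of 628 cells, and at 3m 10 of 16. Transcripts of the pericyte channel were found at 3m in LOW_21, an unidentified adult cluster of 68 cells, with *Kcnj8* at 1942, 2003 and 967 CPM and *Abcc9* at 978, 887 and 1136 CPM. *Acta2* had 0 UMIs there.

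To compare the ages, UMIs were summed over the PER_6 cells of each library and tested with edgeR's quasi-likelihood test, with p-values adjusted over 6329 genes by the Benjamini-Hochberg method. At 3m, 151 genes (2.39%) were higher and 568 (8.97%) lower where calls needed an adjusted p no larger than 0.05 and a log2 fold change of 1 or more either way. Over all genes tested, the log2 fold change had a median of -0.80, so that the scale itself leaned to lower values at 3m. With DESeq2's scaling (RLE) the split was 196 higher and 230 lower (median -0.41), and with library totals 228 higher and 152 lower (median -0.23). A lower level in a library can come from fewer cells of a kind or from less RNA per cell, and a test on summed UMIs does not separate these. The cells summed differed in kind between the ages. A UMI of *Kcnj8* or *Abcc9* was found in 567 of 628 cells at P3 and in 0 of 16 at 3m. The fibroblast genes marked 3 and 10 of these cells. The part of each in the changes below was not tested.

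Most of the fibroblast genes were higher at 3m. Of 11 tested, 7 were higher and 1, *Fstl1*, was lower, and their median log2 fold change was 3.13. *Dcn* was at 21.96, 22.8 and 2.18 CPM at P3 and at 1023, 3935 and 4628 CPM at 3m. The ages did not overlap, and the log2 fold change was 6.98 ± 0.39 (SE, edgeR adjusted p = 6.66e-67). *Pdgfra*, the receptor for PDGF-A of fibroblasts and oligodendrocyte progenitors, was at 445, 725 and 1340 CPM at 3m and had 4 UMIs in all at P3 (log2 fold change 8.98 ± 0.57). *Slc6a13*, a GABA and taurine transporter, rose by 5.50 ± 0.36 and *Serpinf1* (pigment epithelium-derived factor) by 6.22 ± 0.47 on the log2 scale. *Col1a1*, *Islr* and *Mfap4* rose as well, but *Islr* was not called without 3m replicate 1 (3.14, adjusted p = 0.051) or 2 (2.34, adjusted p = 0.24), and *Mfap4* neither without them (2.62, adjusted p = 0.101, and 1.81, adjusted p = 0.34) nor with DESeq2. *Fstl1* was not called without P3 replicate 1, 2 or 3 (-1.39 to -1.66, adjusted p = 0.059 to 0.12). In contrast, *Col1a2* (log2 fold change 0.65 ± 0.39, adjusted p = 0.25) and *Col3a1* (-1.66 ± 0.62, adjusted p = 0.060), which most of the P3 mural cells carried, did not pass the test.

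Pericyte genes were lower at 3m or not called. Of 12 tested, 7 were lower and 0 higher, and their median log2 fold change was -1.66. *Kcnj8* had 3386 UMIs at P3 and 0 at 3m, at least 12.6-fold lower when set against a floor of 3 UMIs over the group, and *Abcc9* had 1797 and 0 UMIs, at least 6.71-fold lower. *Rgs5* was at 7741, 4969 and 4833 CPM at P3 and at 2223, 414 and 426 CPM at 3m (log2 fold change -2.89 ± 0.47, edgeR adjusted p = 7.78e-08). *Higd1b*, a mitochondrial protein of pericytes, fell by 3.58 ± 0.51 on the log2 scale and *Ndufa4l2* by 2.44 ± 0.46. *Rgs5* was not called without P3 replicate 1, 2 or 3 (-1.69 to -2.17, adjusted p = 0.053 to 0.102). *Atp13a5* and *Cox4i2* were called under TMM scaling but not with RLE scaling or library totals (adjusted p = 0.11 to 0.35), nor without 3m replicate 2 or 3 (-1.20 to -1.75, adjusted p = 0.073 to 0.13). *Vtn* did not pass the test (-0.27 ± 0.42, adjusted p = 0.74), with 2312, 8389 and 7368 CPM at 3m. *Pdgfrb* did not pass either (-0.54 ± 0.41, adjusted p = 0.41). Of the 10 shared mural genes, *Cspg4*, *Heyl* and *Gucy1a1* were lower, *Heyl* not with library totals (adjusted p = 0.0702) or DESeq2 (adjusted p = 0.075), and *Gucy1a1* not with RLE scaling, library totals or DESeq2 (adjusted p = 0.091 to 0.19), without 3m replicate 2 (-1.34, adjusted p = 0.075) or without P3 replicate 1, 2 or 3 (-0.25 to -0.91, adjusted p = 0.38 to 0.80).

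The calls of contractile genes as higher at 3m depended on 1 library of that group. *Acta2* was at 13963, 1864 and 2192 CPM at 3m and *Tagln* at 9160, 2900 and 1644 CPM, and neither passed the test (0.16 ± 0.42, adjusted p = 0.84, and 0.51 ± 0.40, adjusted p = 0.42). Replicate 1, which held 4 of the 6 contractile cells, was the highest for both. Of 12 tested, *Myh11* (3.43 ± 0.36, adjusted p = 2.11e-19), *Tpm2* (1.64 ± 0.35) and *Lmod1* (2.64 ± 0.58) were higher and *Cald1* (-2.12 ± 0.44) was lower. Without 3m replicate 1, *Myh11* was at 1.503 with an adjusted p of 0.13, *Tpm2* at -0.070 (adjusted p = 0.93) and *Lmod1* at -0.54 (adjusted p = 0.81), so that the 3 calls were lost. With DESeq2 the adjusted p was 0.074 for *Myh11* and 0.12 for *Lmod1*. *Cald1* was not called without P3 replicate 1, 2 or 3 (-0.92 to -1.34, adjusted p = 0.098 to 0.21). The median log2 fold change of the 12 genes was 0.06.

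**Figure D4:**
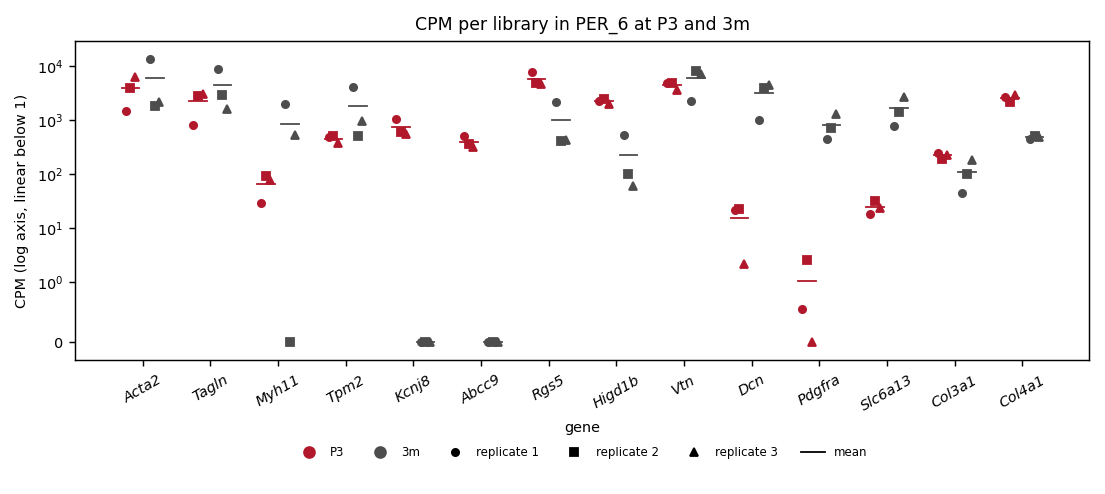
CPM (log axis) of 14 genes in the PER_6 cells of each P3 and 3m library. *Dcn*, *Pdgfra* and *Slc6a13* lie higher in all 3m libraries, *Kcnj8* and *Abcc9* are at 0 in each 3m library, and the *Acta2* values of the ages overlap.

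Genes of the vessel matrix and of dividing cells were lower in part. Of 14 basement membrane genes tested, 8 were lower at 3m and 0 higher, among them *Col4a1* (-3.03 ± 0.48, adjusted p = 2.41e-08), a main chain of vessel collagen IV, and *Sparc* (-1.99 ± 0.43). Of 7 cycling genes 5 were lower, with *Mki67* at 597 and 0 UMIs (at least 2.23-fold) and *Top2a* at 842 and 0 UMIs (at least 3.15-fold). Among 7 ligands tested, *Cxcl12*, a chemokine, was higher (3.00 ± 0.43). Of 8 receptors *Eng*, *Ednra* and *Ednrb* were lower, of 8 tone genes *Prkg1*, and of 10 transcription factors *Tbx2*. Of 9 immediate early genes, *Jun*, *Junb*, *Egr1* and *Ier2* were lower. With RLE scaling and with library totals *Lamb1*, *Nid1*, *Eng*, *Ednrb*, *Prkg1*, *Tbx2*, *Jun* and *Egr1* were not called (adjusted p = 0.062 to 0.30). Nor were *Lamb1* without 3m replicate 2, *Eng* without 3m replicate 3, *Jun* and *Egr1* without either of these, and *Ednrb*, *Prkg1* and *Tbx2* without any one of the 3m replicates (adjusted p = 0.056 to 0.18). *Cxcl12* was not called without 3m replicate 3 (1.64, adjusted p = 0.1), and *Sparc* not without P3 replicate 1 or 3 (-0.78 and -1.10, adjusted p = 0.13 and 0.089).

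The largest rises with libraries that did not overlap were *Ptgds*, the prostaglandin D synthase (362 UMIs at 3m and 5 at P3, log2 fold change 12.01 ± 0.65), *Sncg*, γ-synuclein (21 and 0 UMIs, at least 625-fold higher), *Pdgfra*, *Spp1*, osteopontin (8.52 ± 0.47), and the non-coding *Snhg11* (8.36 ± 0.58). The largest falls were the fatty acid binding proteins *Fabp7* (7278 UMIs at P3, 0 at 3m, at least 27.2-fold) and *Fabp5* (6804 and 0, at least 25.4-fold), the histone *Hist1h1b* (3496 and 0, at least 13.1-fold), the tubulin regulator *Stmn1* (3234 and 0, at least 12.1-fold) and *Kcnj8*. *Fabp7* came mostly from the astroglial sub-cluster of P3 and *Hist1h1b* and *Stmn1* (72.4% of UMIs) from the cycling one. Astroglial genes did not move one way. Of 7 tested, *Slc1a3* and *Gja1* were higher and *Fabp7* and *Aldoc* lower. Without 3m replicate 3, *Slc1a3* (0.81, adjusted p = 0.34) and *Gja1* (1.59, adjusted p = 0.21) were not called, and *Aldoc* was not called with RLE scaling (adjusted p = 0.089). Nor was *Aldoc* called without any one of the 3m replicates (adjusted p = 0.054 to 0.102). Of 2 endothelial genes tested *Emcn* was lower, though not with library totals (adjusted p = 0.066), DESeq2 (adjusted p = 0.055) or without 3m replicate 1 (adjusted p = 0.054). Beyond these, 1 oligodendrocyte gene tested was not called, and the microglial, neuronal and red cell genes were too low to test.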

How the data were processed

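Cells were prepared by the authors from mouse striatum and sequenced as 3 P3 and 3 3m libraries. The deposited table holds UMI counts per gene (32285) and cell, made by the authors with Cell Ranger on mm10. The labels name Seurat 3.1.1. The deposited cell annotation gives the authors' cluster names (unit: other), made after their filter, and all annotated cells had at least 501 genes and at most 10.0% mitochondrial UMIs. No doublet caller was run here, and the sources used here name none. All 16690 cell barcodes, annotated or not, held 32193875 to 37795021 UMIs in the P3 libraries and 5471573 to 10522151 in the 3m libraries. Among annotated cells 56 barcodes occurred in more than 1 library, and 2 PER_6 cells had such a barcode.

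Counts were summed per cluster and library and scaled to CPM. Ages were compared within PER_6 with edgeR 4.0.16 (R 4.3.3, glmQLFit and glmQLFTest, TMM scaling, filterByExpr), with calls where the adjusted p was no larger than 0.05 and the log2 fold change 1 or more either way. The script was tested on simulated data. The labels do not say that libraries came from separate animals, so p-values speak only for these libraries. edgeR shares its estimate of the spread between genes, so its p-values do not rest on the spread of 1 gene alone. Each SE given with a log2 fold change is that change divided by the square root of the test's F, not the observed spread of the libraries. Shares of cells with a UMI were taken after thinning each cell to 2000 UMIs. Sub-clusters came from scanpy 1.11.5 (2000 variable genes, 20 principal components, 15 neighbours, Leiden resolution 0.5, igraph 0.11.9), and a name needed at least 3 genes of a list among the 10 leading genes. The permutation test used scipy 1.17.1 in Python 3.11.15. Gene positions are from GENCODE M21 (GRCm38) and promoter windows from RefSeq (GRCm38.p6).

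The members and the 17 lists (167 genes) were chosen with earlier results of these data known. Named were list genes, the 20 largest folds over the next type, the 5 largest age changes each way with libraries that did not overlap and 50 CPM or more on average in the higher age, leading genes of sub-clusters and *Atp1b2*. Predicted genes were left out. Alternatives were RLE scaling, library totals, DESeq2 1.42.0, other filters and thresholds, a replicate block, each library left out, other thinning depths and other cluster settings.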

Additional observations from a re-analysis of the deposited data

How the results depend on the processing

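Depth limits the 3m side, with 16 cells and 48566 UMIs. The count of 719 genes that differed between the ages was 426 with RLE scaling, 380 with library totals, 479 with DESeq2, 417 with the replicate block and 30 of 148 genes tested after thinning to the smallest library. Leaving out 1 library at a time gave 70 to 555. The lowest, 86, 84 and 70 without P3 replicate 1, 2 or 3, came with only 404 to 408 genes tested, because the filter's minimum follows the median library, then a 3m library. Of 57 called genes of the lists and named genes, 28 were called under every alternative that gave a value. *Tpm2* turned to -0.030 with at least 1000 genes and at most 5% mitochondrial UMIs per cell and to -0.070 without 3m replicate 1, where *Lmod1* was at -0.54. With 1 library left out, *Tpm2* ranged from -0.070 to 2.66 and *Lmod1* from -0.54 to 2.86. No other called gene of the lists changed sign under the alternatives run. The replicate numbers are not stated to pair libraries, and the deviations of same-numbered libraries correlated by only 0.109, 0.0653 and 0.0176. In the paired test of the share of cells p was 0.25, the smallest it can give.

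The 78 genes counted above every other P3 type became 211 with 2 instead of 4 times, 132 without a minimum level, 134 without END_7 (chosen after seeing the data) and 53 to 83 with 1 library left out. Sub-clusters numbered 10 at resolution 1.0, where a fibroblast-like one of 19 cells appeared. Only 3 of the 19 were the fibroblast-gene cells described above. With 10 principal components 85 cells were called fibroblast-like, against 0 in the main setting, so this name was not stable. The smooth muscle-like share was 22.1% to 31.2% with 1 library left out, highest without P3 replicate 1. Cells with 3 or more contractile genes were 67.1% at 1000 UMIs and 94.5% without thinning, and with 3 or more pericyte genes 97.4% at 1000 UMIs. With 3 or more fibroblast genes they were 12.8% in the main setting, 3.00% at 1000 UMIs and 54.1% without thinning. Cycling cells were 4.45% at 1000 UMIs and 15.6% without thinning. In END_7, whose cells were deeper, the shares without thinning were 93.3% for contractile genes, 66.0% for fibroblast genes and 35.3% for cycling cells. These unthinned shares were near or above those of PER_6. At 1000 UMIs they were 14.5%, 0.322% and 3.66% in END_7, below those of PER_6. The causes of the other changes were not tested.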
